A study of Mus musculus with 23 samples.

Results

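Splenic CD8+ T cells, the cytotoxic arm of the T-cell response, were given arachidonic acid (AA), a polyunsaturated fatty acid of membrane phospholipids, and compared by RNA sequencing with the same kind of cells given no fatty acid. The comparison takes 8 of the 23 libraries of the series, 4 with AA and 4 untreated, picked by their column names in the table of raw counts. All 8 come from mice whose Plpp1 gene carries loxP sites and that have no Cre, the PLPP1fl/fl genotype called WT in the column names. Plpp1 encodes a membrane phosphatase that removes phosphate from lipid phosphates. For comparison, WT cells given octadecenoic acid (OA), a fatty acid with a single double bond, formed 4 libraries. Lckcre-PLPP1fl/fl cells, called KO, in which Cre is driven by the Lck promoter of the T lineage, formed 4 untreated libraries and 4 with AA. The study's title concerns PD-1, ferroptosis and the antitumour activity of T cells. Polyadenylated RNA was extracted with TRIzol and sequenced from a stranded kit. Fatty acid doses, exposure times and the ages of the mice are not in the labels. Nor do they say whether libraries of a group came from separate animals or cultures, and the p-values below therefore speak only of variation among these libraries, which may be technical.

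AA is released from phospholipids and can be turned into eicosanoids, and its several double bonds make it prone to peroxidation, the reaction that drives ferroptosis when lipid peroxides are not cleared. Electrophiles and oxidants free the transcription factor NRF2 from its inhibitor KEAP1, and NRF2 then binds antioxidant response elements with a small MAF protein to switch on genes of glutathione, thioredoxin and quinone metabolism. Polyunsaturated fatty acids and sterols both restrain the SREBP transcription factors, which drive cholesterol synthesis and fatty acid desaturation. Fatty acids also bind PPAR receptors, which raise genes of mitochondrial fatty acid oxidation.

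The 8 libraries held 40057500 to 56531600 counts each untreated and 42509600 to 49202100 with AA, and 22714 to 24137 genes had at least 1 count. Counts of T-cell receptor beta segments were mostly Trbv12-1, at 81.6 to 84.2% untreated and 85.2 to 85.6% with AA (exact two-sided permutation test, p = 0.0286, the smallest that 4 against 4 libraries can give; 0.314 after Benjamini-Hochberg adjustment over 22 library measures). Cd8a lay at 350 to 374 CPM, counts scaled to a common library size, untreated and 350 to 362 with AA, and the summed level of the CD8 T-cell markers at 1639 to 1712 and 1616 to 1685. Summed dendritic-cell markers, Batf3 among them, lay at 33.7 to 37.7 CPM untreated and 31.4 to 32.6 with AA (exact p = 0.0286, 0.314 after the same adjustment). Of the 9 that were tested Batf3 alone was called. B-cell markers summed to 299.5 to 319 against 293 to 299.5 and CD4 T-cell and regulatory T-cell markers to 805 to 859 against 794 to 811, each with an exact p of 0.0571. Neutrophil markers were mostly at 0 (4 of 6). In these bulk libraries fewer cells of a type and less RNA per cell cannot be told apart. Plpp1 itself was barely counted, at 0.356 to 0.736 CPM in untreated WT, 0.383 to 0.752 in WT with AA, 0.454 to 0.541 in untreated KO and 0.469 to 0.769 in KO with AA, and it overlaps Skiv2l2 (208 CPM) on the other strand. The deleted part is not given in the sources used here, so counts over the whole gene do not check the genotype labels.

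AA changed few genes, and most of them by little. edgeR's quasi-likelihood test, fitted to all 23 libraries with Benjamini-Hochberg adjustment over 18015 genes, called 75 genes at an adjusted p under 0.05, which is 0.416% of those tested. Of these, 29 (0.161%) were higher and 46 (0.255%) lower with AA. The 4 AA libraries did not overlap the 4 untreated ones for any of the 75, which was also so for 879 of the 17940 genes not called (4.9%). An unadjusted p under 0.05 was reached by 1422 of all genes (7.89%). The higher genes had a median change of 1.17-fold and a largest of 3.09-fold, and the lower genes of 1.19-fold and 1.73-fold, so that Nqo1 alone passed 2-fold. The median log2 difference over all genes was 0.00. The higher genes included oxidant-response genes and Cpt1a, and the lower included cholesterol and desaturation genes. On none of the 35 gene lists used here were 47 of the 75, 17 of the higher and 30 of the lower genes. Leaving out untreated replicate 1 left 48 calls, and leaving out untreated replicate 4 or any AA library left 51 to 54.

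**Figure D1:**
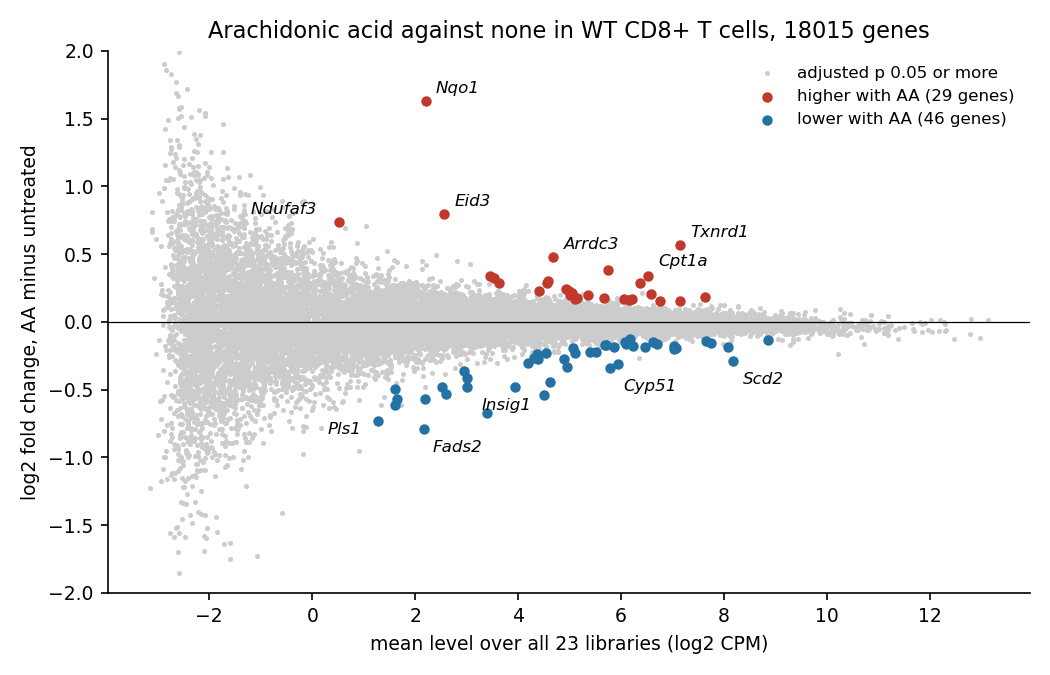
Each point is 1 of the 18015 tested genes, with its average level (log2 CPM, horizontal) and its log2 difference AA minus untreated in WT cells (vertical); coloured points are the 29 higher and 46 lower genes at adjusted p under 0.05. The called genes lie close to 0 apart from Nqo1 at 1.63 and a few low-level genes near 0.79 and -0.79, and 6 genes lie beyond the axis limit of 2.

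The oxidant-response genes that rose were those of quinone, thioredoxin and glutathione metabolism and of iron storage. Of 32 tested NRF2 targets, 6 rose and none fell, beside 0.161% of all genes called higher. The 6 were Nqo1, Txnrd1, Gclc, Gsr, Sqstm1 and Ftl1, and the list's median log2 difference was 0.07 against 0.00 over all genes. Below an unadjusted p of 0.05 the list held 13 of its 32 members, 11 higher and 2 lower, beside 7.89% of all genes. The lower pair was Tkt and Pgd, enzymes of the pentose phosphate pathway.

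Nqo1, a quinone reductase (chromosome 8, 107388225 to 107403206, minus strand, GRCm38), was counted at 0.782, 1.03, 1.149 and 0.931 CPM in the 4 untreated libraries and at 3.42, 2.92, 3.604 and 2.18 CPM with AA. All AA libraries lay above all untreated ones, and AA replicate 4 was the lowest of its group. These levels rest on 34 to 58 counts untreated and 108 to 159 with AA. The difference was 3.09-fold (log2 1.63, SE 0.15, adjusted p = 8.03e-09). Txnrd1, the cytosolic thioredoxin reductase (chromosome 10, 82859206 to 82897724, plus strand), was far more abundant, at 78.2, 82.7, 84.7 and 82.3 CPM untreated and 122, 126, 117 and 119.8 with AA. Every AA library exceeded the highest untreated one by more than the whole untreated range, and the rise was 1.48-fold (log2 0.56, SE 0.03, adjusted p = 4.1e-14), the smallest p of the comparison. Eid3, an inhibitor of differentiation that lies within Txnrd1 on the same strand, rose from 3.16 ± 0.403 to 5.45 ± 0.468 CPM (mean ± SD, n = 4 in each group; 1.73-fold, adjusted p = 6.91e-05), and reads of the longer gene could enter its count.

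Glutathione enzymes rose less. Gclc, the catalytic subunit of the enzyme that limits glutathione synthesis, lay at 36.1, 38.2, 40.3 and 40.3 CPM untreated and at 49.8, 50.3, 48.96 and 52.4 with AA, a rise of 1.301-fold (SE 0.04 log2, adjusted p = 2.28e-07). The lowest AA library stood well above the highest untreated ones. Gsr, which regenerates reduced glutathione, lay at 16.2, 15.1, 17.5 and 16.4 CPM untreated and 19.5, 21.5, 20.2 and 19.1 with AA (1.23-fold, adjusted p = 0.00613). Its groups were separated by a gap smaller than either group's range. Gclm, the modifier subunit that partners Gclc, differed by a log2 of 0.13 and did not pass (adjusted p = 0.646). Ggt1, the surface enzyme that cleaves extracellular glutathione, fell from 4.93 ± 0.231 to 3.33 ± 0.155 CPM (adjusted p = 0.00129). Of the 20 tested genes of glutathione and cystine handling, Gclc and Gsr alone rose and none fell, beside 0.161% of all genes called higher. Ggt1 is not on that list.

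Among the remaining oxidant-response genes, Sqstm1, the autophagy receptor p62 that also binds KEAP1, lay at 121, 126, 123 and 119 CPM untreated and 135, 135, 139 and 135 with AA. Its rise was one of the smallest called, 1.11-fold (adjusted p = 0.00434), with AA libraries close together and apart from the untreated ones. Ftl1, the ferritin light chain that stores iron, rose from 24.1 ± 0.861 to 28.5 ± 0.656 CPM (adjusted p = 0.0428). It overlaps Gm10252 on the other strand, and its call was lost in 10 of 17 other settings. Cat, the peroxisomal catalase, lay at 62.6 ± 1.798 untreated and 69.98 ± 0.938 CPM with AA (adjusted p = 0.0363, lost in 9 of 17). Both are calls near the threshold.

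Genes for proteins that share the DNA sites of NRF2 rose as well. Of 10 genes that control NRF2, 2 rose and none fell, beside 0.161% of all genes called higher. Mafg, a small MAF protein that binds DNA together with NRF2 or with its competitor, lay at 19.2, 19.4, 21.2 and 18.1 CPM untreated and 25.1, 23.2, 24.3 and 22.1 with AA (1.22-fold, adjusted p = 0.0132). Bach1, the repressor that occupies the same DNA sites, lay at 18.5, 20.6, 18.8 and 19.1 and 22.8, 23.5, 22.1 and 21.9 (1.17-fold, adjusted p = 0.0146). For both genes each AA library exceeded each untreated one, by less than either group's range. The call of Mafg was lost in 4 of 17 other settings and that of Bach1 in 5. Without untreated replicate 1, 0 of the 10 were called. Mafg overlaps Sirt7 (70.6 CPM) on the same strand. Nfe2l2, which encodes NRF2, had a log2 difference of -0.07 (adjusted p = 0.728) and Keap1 of 0.07 (adjusted p = 0.707).

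Several classical NRF2 targets did not pass. Srxn1, the sulfiredoxin that repairs oxidised peroxiredoxins, lay at 0.966, 0.641, 0.684 and 1.04 CPM untreated and 1.42, 1.43, 1.102 and 1.45 with AA, a log2 difference of 0.71 with a 95% interval from 0.31 to 1.11 (adjusted p = 0.14). At such low counts the interval spans small and large changes alike. Prdx1, an abundant peroxiredoxin, differed by 0.21 log2 (adjusted p = 0.0868) and Slc3a2, the heavy chain of the cystine transporter, by 0.14 (adjusted p = 0.0816). Hmox1, the heme oxygenase, stood at 3.01 ± 0.479 CPM untreated and 3.11 ± 0.175 with AA, with a log2 interval from -0.22 to 0.34. Slc7a11, the cystine and glutamate exchanger, stood at 0.624 ± 0.2204 and 0.637 ± 0.114 CPM. For Hmox1 and Slc7a11 no change was detectable at these counts.

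The 250 bases before the start sites of Txnrd1 and Nqo1 are shown because Nqo1 had the largest rise and Txnrd1 the smallest p, with RefSeq's promoter table of GRCm38.p6 as the source. The core of the antioxidant response element was searched as TGACNNNGC on both strands of each window of 250 bases before to 50 after a start. Capitals mark a match. Txnrd1 holds 1 match, written on the minus strand, whose first base lies 92 bases before the start, in 1 of its 3 start-site windows. Nqo1 holds none in this window.
Txnrd1 (chr10:82858956-82859205, plus strand): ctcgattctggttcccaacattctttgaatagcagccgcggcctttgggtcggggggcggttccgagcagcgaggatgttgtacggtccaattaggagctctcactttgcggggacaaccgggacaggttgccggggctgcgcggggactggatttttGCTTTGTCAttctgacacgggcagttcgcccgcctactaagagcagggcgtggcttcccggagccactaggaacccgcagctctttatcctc
Nqo1 (chr8:107403206-107403455, minus strand): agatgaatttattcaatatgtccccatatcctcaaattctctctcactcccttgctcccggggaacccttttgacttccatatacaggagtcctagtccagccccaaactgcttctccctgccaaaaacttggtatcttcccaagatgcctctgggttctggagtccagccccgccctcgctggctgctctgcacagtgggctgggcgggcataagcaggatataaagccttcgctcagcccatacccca
The core was found in 1818 of the 10804 tested genes with a window (16.8%), in 7 of 22 higher genes (31.8%; Abcb1a, Abr, Mafg, Mirt1, Ndufaf3, Patj and Txnrd1), in 4 of 33 lower genes (12.1%) and in 9 of 25 listed NRF2 targets (36.0%). Of the 4 called NRF2 targets with a window, Txnrd1 alone held it. A gene counts here if any of its windows matches. By window the shares were 14.2% over all genes, 22.9% in higher, 14.3% in lower and 30.3% in listed NRF2 genes.

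Among the gene lists, cholesterol synthesis and uptake held the most decreases. Of 34 tested, 8 fell and none rose, beside 0.255% of all genes called lower. Among the 8 were Insig1, Fdps, Msmo1, Cyp51, Hmgcs1, Idi1 and Srebf2. The median log2 difference was -0.15, with 25 of 34 below 0, against 8980 of 18015 over all genes. Below an unadjusted p of 0.05 there were 19 lower members and 1 higher, again beside 7.89% of all genes. The decreases took in early and late steps of the pathway and both SREBP genes, Srebf1 being listed with fatty acid synthesis.

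Insig1, which holds the SREBP complex in the endoplasmic reticulum when sterols are plentiful and is itself an SREBP target (chromosome 5, 28071363 to 28078662, plus strand), lay at 13.9, 15.1, 15.2 and 15.03 CPM untreated and 9.72, 11.1, 10.3 and 11.3 with AA. It was 1.396-fold lower (adjusted p = 2.28e-07), and untreated replicate 1 stood apart below the other untreated libraries, toward the AA values.

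The enzymes of the pathway fell by less. Hmgcs1, which makes HMG-CoA (chromosome 13, 119690462 to 119708086, plus strand), lay at 51.03, 55.1, 54.9 and 56.3 CPM untreated and 44.8, 44.96, 41.96 and 43.7 with AA (1.24-fold lower, adjusted p = 4.25e-07). Cyp51, which demethylates lanosterol, lay at 50.4, 50.3, 47.97 and 45.7 and 37.9, 37.6, 39.3 and 38.8 (1.27-fold lower, adjusted p = 2.28e-07). Cyp51 overlaps the far more abundant Akap9 (776 CPM) on the other strand, whose log2 difference was -0.01. Fdps, farnesyl diphosphate synthase, lay at 22.4, 20.3, 22.3 and 20.7 and 14.4, 14.6, 17.9 and 16.04 (1.36-fold lower, adjusted p = 8.88e-05), and the overlapping Gm43738 on its strand fell too (log2 -0.33), so their reads may be shared. Idi1, which isomerises isopentenyl diphosphate, lay at 26.7, 28.4, 30.8 and 27.8 and 24.98, 24.7, 24.6 and 23.4 (1.16-fold lower, adjusted p = 0.00425). All 4 enzymes were lower in each AA library than in each untreated one. Msmo1, a later sterol demethylase, fell from 6.98 ± 0.214 to 5.44 ± 0.439 CPM (adjusted p = 0.0325, lost in 8 of 17 other settings) and Srebf2, which encodes SREBP2, from 73.8 ± 3.31 to 65.1 ± 1.13 (adjusted p = 0.0127). Sqle, the squalene epoxidase, did not pass (log2 -0.17, adjusted p = 0.406), nor did Sc5d, a late desaturase of the sterol ring (log2 -0.16, adjusted p = 0.0624).

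The sterol regulatory element, the site of SREBP, was searched as TCACNCCAC in the same windows. Hmgcs1, which holds these letters, and Insig1, which does not, are shown as lowered sterol genes that the promoter table holds. Cyp51 and 3 other called sterol genes with a window hold no match either. The capitals in Hmgcs1 begin 137 bases before the start.
Hmgcs1 (chr13:119690101-119690350, plus strand): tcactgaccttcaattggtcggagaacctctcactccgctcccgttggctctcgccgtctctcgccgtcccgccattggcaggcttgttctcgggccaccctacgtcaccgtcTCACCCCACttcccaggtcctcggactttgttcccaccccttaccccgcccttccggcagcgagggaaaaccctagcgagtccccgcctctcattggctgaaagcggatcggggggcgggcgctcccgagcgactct
Insig1 (chr5:28071162-28071411, plus strand): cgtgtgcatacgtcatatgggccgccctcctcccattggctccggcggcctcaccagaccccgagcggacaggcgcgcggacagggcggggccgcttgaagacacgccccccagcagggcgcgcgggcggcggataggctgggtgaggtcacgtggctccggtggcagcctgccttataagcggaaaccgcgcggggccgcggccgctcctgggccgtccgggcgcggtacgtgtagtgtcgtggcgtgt
The element was found in 153 of 10804 genes (1.42%), in 1 of 33 lower genes (Hmgcs1), in 1 of 22 higher genes (Ftl1) and in 1 of the 6 called cholesterol genes with a window.

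Desaturases fell beside the sterol genes. Of 21 tested genes of fatty acid synthesis and desaturation, 4 fell and none rose, beside 0.255% of all genes called lower. The 4 were Fads2, Scd1, Scd2 and Srebf1, and the list median was -0.05 log2. Fads2 encodes the desaturase that begins the conversion of linoleic acid toward AA itself. It lay at 6.35, 5.27, 5.13 and 5.25 CPM untreated and 3.31, 3.099, 3.397 and 2.88 with AA, 1.73-fold lower (adjusted p = 6.25e-05), the largest decrease among the lower genes. Untreated replicate 1 stood above the other untreated libraries, all of which lay above every AA library. Scd2, the abundant stearoyl-CoA desaturase of these cells, lay at 393, 358, 379.6 and 367 CPM untreated and at 306, 305, 306 and 307 with AA. The AA libraries were almost level with each other and all lay below the untreated ones (1.22-fold lower, adjusted p = 2.28e-07). Scd1, a minor relative here, lay at 3.96, 3.56, 4.33 and 4.36 and 2.54, 2.73, 2.39 and 3.22 (1.48-fold lower, adjusted p = 0.0102). Its highest AA library came close to its lowest untreated one. Srebf1, which encodes SREBP1, fell from 38.9 ± 1.09 to 33.2 ± 2.12 CPM (adjusted p = 0.0299, lost in 6 of 17 other settings). Fads1, the next desaturase on the way to AA, did not differ detectably (log2 -0.01, 95% interval -0.16 to 0.14). Among 16 tested LXR receptors and targets, Scd1 and Srebf1 alone were called, beside 0.416% of all genes.

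The list of fatty acid oxidation and PPAR targets held 2 calls, and that of the entry step into mitochondria was the firmer. Of 40 tested genes, 2 rose and none fell, beside 0.161% of all genes called higher. The list median was 0.02, with 22 members above 0 and 18 below. Cpt1a, the carnitine palmitoyltransferase that admits long-chain fatty acids into mitochondria, lay at 53.6, 57.3, 53.2 and 54.3 CPM untreated and 70.9, 68.1, 69.1 and 67.96 with AA (1.26-fold, log2 0.34, SE 0.03, adjusted p = 1.04e-08). Both groups were tight and far apart. Acadvl, the dehydrogenase of very long chains, rose from 30.6 ± 1.13 to 35.1 ± 1.01 CPM (adjusted p = 0.046), overlaps Dvl2 on the other strand and lost its call in 11 of 17 other settings. Slc25a20, the acylcarnitine carrier next in line, did not pass (log2 0.22, adjusted p = 0.335). Plin2, the coat protein of lipid droplets, lay at 9.64 ± 1.47 CPM untreated and 9.88 ± 0.654 with AA (log2 0.04, 95% interval -0.14 to 0.22). None of the 20 tested lipid droplet genes, the 30 acyl-CoA synthetase and phospholipid remodelling genes, the 23 eicosanoid genes or the 13 lipid phosphatase genes was called.

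The paired arrestin genes moved in opposite directions. Arrdc3, an arrestin-domain adaptor that directs receptors to endosomes, lay at 11.7, 12.3, 14.3 and 11.4 CPM untreated and 16.7, 16.9, 17.9 and 17.7 with AA (1.39-fold, adjusted p = 8.89e-07). Txnip, its relative that binds thioredoxin and restrains glucose uptake, lay at 135, 132, 137 and 138 and 124, 121, 119.7 and 119.7 (1.12-fold lower, adjusted p = 0.00691). Neither pair of groups overlapped. Gm15441, antisense to Txnip, fell as well (log2 -0.18), and without the strand setting of the counting their reads cannot be told apart.

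Interferon-response genes held 2 calls, both of them lower. Of 50 tested, 2 fell and none rose, beside 0.255% of all genes called lower. In this list 40 lay below 0, with a median log2 difference of -0.09. Cmpk2, a mitochondrial nucleotide kinase induced by interferon, lay at 10.1, 10.3, 10.6 and 11.8 CPM untreated and 7.74, 8.73, 7.598 and 6.63 with AA (1.39-fold lower, adjusted p = 0.00108). Phf11b fell from 78.03 ± 1.97 to 69.6 ± 1.68 CPM (adjusted p = 0.00796). Irf7, the interferon regulatory factor that amplifies the response, lay at 26.7 ± 2.15 and 22.4 ± 0.367 CPM and did not pass (adjusted p = 0.0797), nor did Rsad2 (adjusted p = 0.274), Ifi27l2a (adjusted p = 0.139) or Trim25 (adjusted p = 0.0856). Below an unadjusted p of 0.05 the list held 15 lower members and 1 higher of 50, with 7.89% over all genes. The core that interferon regulatory factors bind, searched as AANNGAAA in the promoter windows described above, stood in 33 of 39 listed interferon genes (84.6%), 2318 of all 10804 genes (21.5%) and 6 of the 33 lower genes (18.2%).

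Several called genes encode surface receptors, grouped here after their values were seen and on no fixed list. Itga4, the alpha chain of the VLA integrin, fell from 152 ± 4.303 to 133 ± 1.21 CPM (adjusted p = 0.000154), and Klrk1, the activating receptor NKG2D, from 130.0 ± 1.28 to 117 ± 0.894 (adjusted p = 0.0122). Nrp1, the semaphorin and VEGF co-receptor neuropilin, fell from 3.16 ± 0.6396 to 2.05 ± 0.156 (adjusted p = 0.00934). These were decreases of 1.11-fold for Klrk1 to 1.53-fold for Nrp1. Cd72, a lectin-like inhibitory receptor best known on B cells, fell from 34.9 ± 1.38 to 28.9 ± 0.414 CPM (adjusted p = 0.000616). The part of the B-cell markers given above in this difference was not tested. Gpr55, a receptor for lysophosphatidylinositol, differed by -0.20 log2 (adjusted p = 0.0122), and Treml2 and Art2b, further surface proteins, had log2 differences of -0.18 and -0.31. H2-Q6 and H2-T24, class I genes of the MHC, fell too (adjusted p = 0.000141 and 0.0261), but near-identical relatives make their counts uncertain. Among transcription factors, Batf3, an AP-1 family member, fell from 6.84 ± 0.758 to 4.91 ± 0.313 CPM (adjusted p = 0.0155) and Zbtb32, a repressor of lymphocyte activation, from 42.9 ± 0.524 to 36.9 ± 0.793 (adjusted p = 0.0127). Batf3 is itself counted in the dendritic-cell sums given above, so those sums are no separate measure beside it. The part of dendritic cells in its difference was not tested. Tsc22d3, the glucocorticoid-induced leucine zipper, and Mxd1, a MYC antagonist, had log2 differences of -0.17 and -0.15, with calls lost in 6 and 9 of 17 other settings.

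The other genes that rose had varied roles. Lmna, which encodes lamins A and C of the nuclear envelope, lay at 14.3, 13.4, 13.8 and 11.4 CPM untreated and 15.7, 18.4, 15.4 and 16.5 with AA (1.25-fold, adjusted p = 0.0172). Sipa1l1, a Rap GTPase-activating protein, rose from 78.3 ± 4.55 to 95.4 ± 2.31 CPM (adjusted p = 1.01e-05), and Patj, a polarity scaffold, from 88.00 ± 2.96 to 101 ± 1.396 (adjusted p = 0.00115). Abcb1a, the P-glycoprotein drug exporter, and Odc1, the ornithine decarboxylase that begins polyamine synthesis, rose by 0.17 and 0.19 log2, and the call of Odc1 was lost in 8 of 17 other settings. These were modest shifts of abundant transcripts. Ttc39c rose from 8.21 ± 0.231 to 10.4 ± 0.785 CPM (adjusted p = 0.0122) and Tmem140 from 12.3 ± 0.825 to 14.99 ± 0.679 (adjusted p = 0.0172). Ndufaf3, an assembly factor of respiratory complex I, had 39 to 59 counts untreated and 68 to 105 with AA (log2 0.74, adjusted p = 0.0324), and it overlaps Impdh2 (97.2 CPM). Its call was lost in 7 of the 16 other settings that tested it.

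The lower genes outside the lists included several of low or tissue-restricted expression. Pls1, an actin-bundling plastin, lay at 3.27, 3.03, 3.52 and 2.38 CPM untreated and 1.81, 1.998, 1.65 and 1.85 with AA (1.66-fold lower, adjusted p = 0.00347). Itih5, a hyaluronan-binding inter-alpha-trypsin inhibitor chain, lay at 24.97, 29.01, 27.5 and 25.7 and 19.4, 18.1, 20.1 and 16.4 (1.45-fold lower, adjusted p = 1.85e-07). For Itih5 the gap between groups was somewhat wider than the range of either group. Mgarp, a mitochondrial protein, fell from 3.63 ± 0.258 to 2.57 ± 0.243 CPM (adjusted p = 0.0156), and Samd3 fell too (log2 -0.41, adjusted p = 0.00691). The remaining lower genes were Golm1, Podnl1, Ppp3cc, Cldnd1, Tsr1, Utp14b, A130010J15Rik, Gm13502 and Gm19585, with log2 differences of -0.53 to -0.13. The remaining higher genes were Abr, Mirt1, Fam160a2, Pld3, Slc37a3, Cherp, Gm14085 and RP23-320D23.6, none above 1.17-fold. Utp14b shares its strand and position with Acsl3, and RP23-320D23.6 with the abundant Pkm (752 CPM), so their reads may belong to those neighbours. In this remainder, calls were lost in up to 13 of 17 other settings, for Slc37a3.

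**Figure D2:**
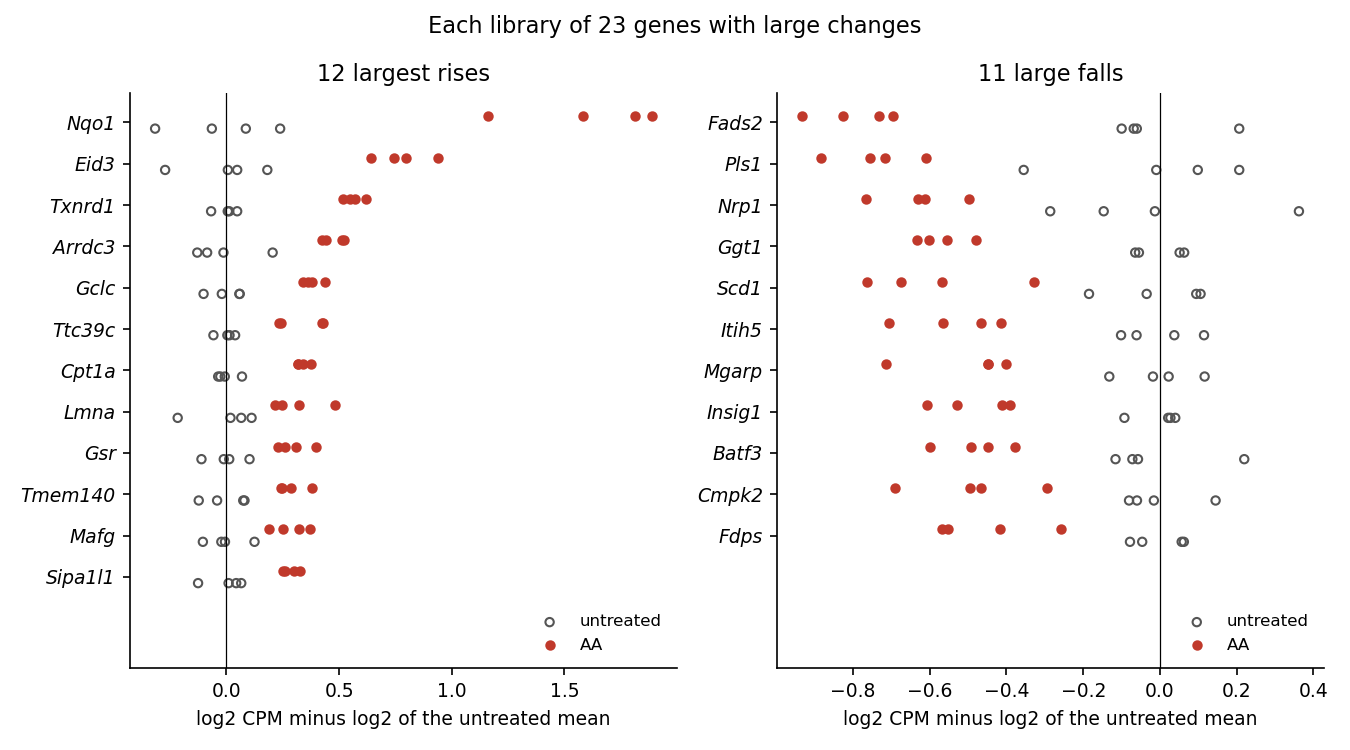
Log2 CPM of each library minus the log2 of the untreated mean for the 12 largest rises and 11 large falls, with open points for the 4 untreated and filled points for the 4 AA libraries of WT cells. In every gene the AA points lie to 1 side of all untreated points, and the widest distance is that of Nqo1, from 0.782 to 1.149 CPM untreated and 2.18 to 3.60 CPM with AA.

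The genes most tied to the study's subject were mostly not called. Of 24 such genes, Fads2, Scd1, Scd2 and Cpt1a were called, beside 0.416% of all genes, and 20 were not. Among those 20 the smallest adjusted p was 0.234, for Acsl3 (log2 -0.23, 95% interval -0.38 to -0.09). For 15 of the 20 the 95% interval of the difference lay within 1.5-fold either way, and for 5 it was wider. The list of ferroptosis defence held 6 calls among 31 tested genes, beside 0.416% of all genes. Of these, 4 were higher (Nqo1, Txnrd1, Gclc and Ftl1) and 2 lower (Scd1 and Scd2). All 6 were already counted above, as NRF2 targets or as desaturases, and are not further calls. Gpx4, the peroxidase that clears lipid peroxides, lay at 38.9, 42.1, 41.9 and 39.2 CPM untreated and 39.8, 39.8, 40.9 and 40.6 with AA, with an interval of -0.10 to 0.09 log2. Acsl4, which loads AA onto coenzyme A for membrane lipids, lay at 69.04 ± 2.33 and 69.6 ± 1.28 CPM (-0.06 to 0.09). The libraries of both groups were interleaved for these genes. Pdcd1, which encodes PD-1, lay at 10.2, 10.4, 11.3 and 11.3 untreated and 12.2, 11.9, 11.7 and 11.9 with AA (log2 0.15, adjusted p = 0.56). Its AA libraries all lay above the untreated ones, yet the difference did not pass. Gzmb, the cytotoxic protease granzyme B, lay at 198 ± 4.42 and 199.9 ± 2.99 CPM, and Tfrc, the transferrin receptor, at 148 ± 3.43 and 145 ± 2.64. Tcf7 and Tox, factors of memory-like and exhausted T cells, had log2 differences of 0.06 and 0.02. Ifng and Plpp1 had too few counts for a narrow interval (-0.57 to 0.67 log2 for Plpp1).

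Of the 35 gene lists, 20 held no called member. The 31 tested genes of the integrated stress response had a median log2 difference of -0.03, the 24 of the unfolded protein response of -0.00 and the 17 heat shock genes of 0.01. The 33 cell cycle genes lay at a median of -0.02 and the 30 of glycolysis and hypoxia at 0.00. All 11 tested protein genes of the mitochondrial genome were below 0 (median -0.10), as were 42 of 52 nuclear genes of the respiratory chain (-0.03) and 43 of 48 ribosomal protein genes (-0.05), without a call in any of them. No member was called among 26 immediate early genes, 22 of NF-kB and TNF signalling, 25 of CD8 effector function, 21 inhibitory receptors and dysfunction factors, 31 cytokine and chemokine receptors, 13 suppressors of cytokine signalling, 21 p53 targets or 19 clock genes. A list without a call at this depth is not a list shown to be unaffected.

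**Figure D3:**
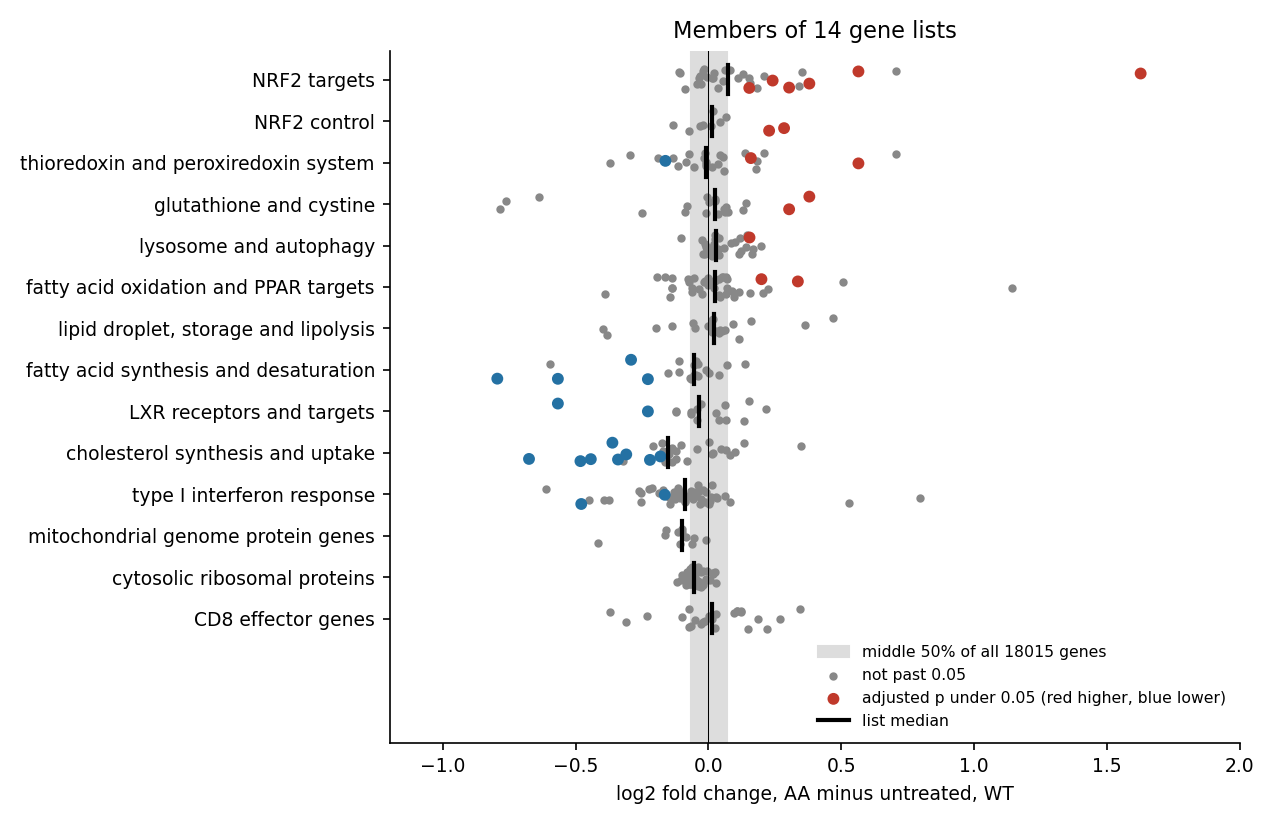
For 14 gene lists, the log2 difference AA minus untreated in WT of every tested member (points), with the median (bar) and called members coloured; the grey band is the middle 50% of all genes, -0.07 to 0.07. Cholesterol members extend to the left around a median of -0.15, interferon members around -0.09, and NRF2 targets to the right around 0.07.

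In KO cells the same fatty acid gave far more calls, 2201 genes higher (12.2%) and 2772 lower (15.4%), from libraries that share none with the WT comparison. Of the 29 genes that rose in WT, 26 (89.7%) also rose in KO, and of the 46 that fell, 38 (82.6%) fell, against those background shares. In all 64 of the 75 (85.3%) were called in the same direction, which is 1.29% of the 4973 KO calls. Of the rest, 2 were called in KO in the opposite direction, 1 higher and 1 lower in WT, and 9 were not called in KO. The median log2 difference of the 29 was 0.23 in WT and 0.65 in KO, and that of the 46 was -0.25 and -0.46. Over the 75 genes Pearson's r and Spearman's rho between the differences were both 0.895, as a description over genes that share their libraries. The WT and KO libraries differ in more than Cre: Trbv12-1 made up 81.6 to 86.0% of beta-segment counts in all 12 WT libraries and 3.27 to 4.32% in all 11 KO libraries, Xist lay at 784 to 884 CPM against 2.98 to 5.35, and the Y-linked Ddx3y at 56.9 to 64.0 against 95.5 to 108. Every WT library thus held both Xist and Ddx3y, each in a narrow range. Whether WT cells were pooled across animals is not in the labels and was not tested. Genotype, receptor makeup and the sex makeup of the libraries therefore cannot be told apart here.

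The difference between the AA effects was tested as an interaction, which was more positive in KO for 1075 genes (5.97%) and more negative for 1438 (7.98%). Among the 75 WT calls it passed for 47, further from 0 in KO for 38 and the other way for 9; WT values that made the calls enter this test. All 6 called NRF2 targets rose further in KO. Nqo1 lay at 2.31, 2.05, 2.295 and 2.09 CPM in untreated KO and 12.9, 15.2, 14.3 and 12.9 with AA, and its log2 effect was 1.04 larger than in WT (adjusted p = 0.000315). Txnrd1 lay at 121, 128, 127 and 131 and 269.8, 279, 265 and 271 (0.53 larger, adjusted p = 3.09e-10). In both genes untreated KO stood above untreated WT and overlapped WT with AA, and all KO AA libraries lay far above the rest. Bach1 and Mafg had interactions of 0.73 and 0.68 (adjusted p = 1.95e-09 and 4.29e-07).

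Several genes not called in WT rose in KO. Srxn1, whose WT interval lay above 0, had a log2 difference of 3.15 in KO (interaction 2.44, adjusted p = 8.57e-08), Hmox1 of 1.59 (1.53, adjusted p = 3.77e-07) and Slc7a11 of 1.63 (1.60, adjusted p = 0.0159). Plaur, the urokinase receptor, followed at 1.47 (interaction 1.34). Lrrc8dos, at 1.05, was the other gene named for the size of its positive interaction, among genes with a mean log2 CPM of at least 1. In the other direction stood Scd1 (-1.19), Srm, the spermidine synthase (-1.13), Egr3, an immediate-early factor (-0.96), and Bspry (-0.96). Gzmb fell in KO (log2 -0.42, interaction -0.43, adjusted p = 7.48e-09) and so did Acsl4 (log2 -0.18, interaction -0.19, adjusted p = 0.00922). Pdcd1 was -0.15 in KO (adjusted p = 0.0791) and its interaction of -0.30 passed (adjusted p = 0.0239).

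The sterol genes were split. Insig1 lay at 22.7, 21.95, 23.1 and 22.3 CPM in untreated KO and 16.3, 16.4, 16.4 and 16.03 with AA, a log2 difference of -0.47 against -0.48 in WT (interaction 0.01, SE 0.07, adjusted p = 0.945). No difference between its effects was detectable at this error. Hmgcs1, Cyp51, Idi1 and Srebf2 instead fell further in KO, with interactions of -0.37, -0.30, -0.53 and -0.17 (adjusted p = 1.52e-06, 7.73e-05, 2.24e-08 and 0.0226). Txnip, lower in WT, had 0.07 in KO (adjusted p = 0.112; interaction 0.23, adjusted p = 0.00041). Ndufaf3, higher in WT, had -0.12 (adjusted p = 0.666; interaction adjusted p = 0.012). Neither was called in KO, and both interactions passed.

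**Figure D4:**
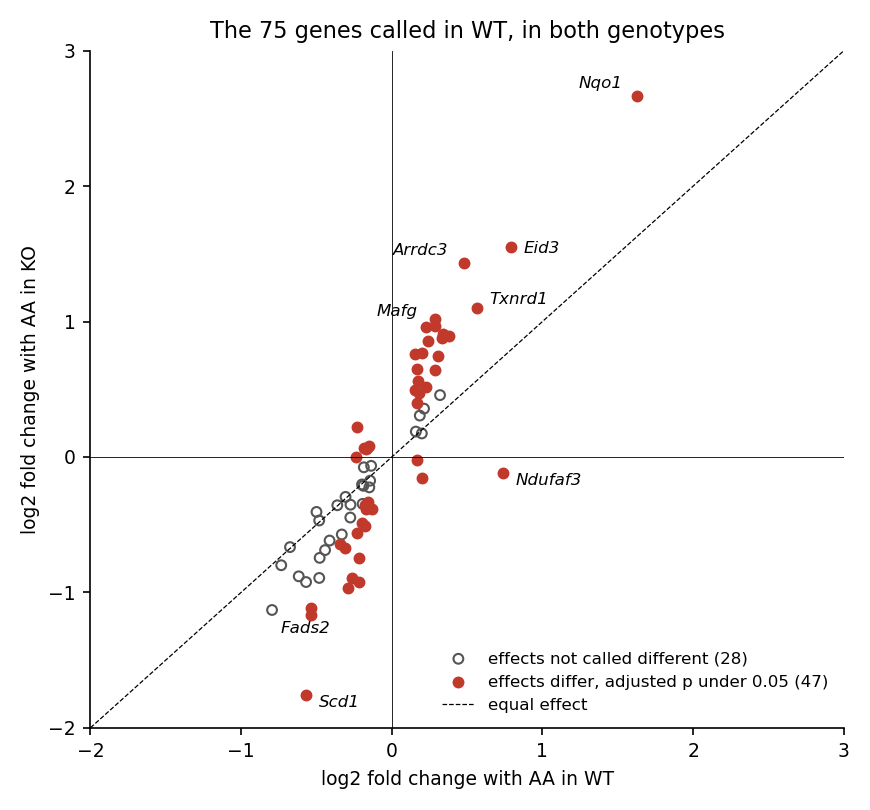
The log2 difference AA minus untreated in WT (horizontal) and in KO (vertical) for the 75 genes called in WT; filled points are the 47 whose effects differ at an adjusted interaction p under 0.05 and open points the other 28. Most points lie in the lower left and upper right, steeper than the line of equal effects, with Nqo1 at 1.63 and 2.66 and Scd1 at -0.57 and -1.75.

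Whether AA and OA acted differently in WT was tested directly between their libraries: 351 genes (1.95%) were higher with AA than with OA and 180 (0.999%) lower. Both fatty acids are set against the same 4 untreated libraries, so their differences from untreated are given only side by side. Among the 75 genes called for AA, 28 differed between the fatty acids. For 20 of these AA differed from OA in the same direction as from untreated, and for 8 in the other direction. Of the 6 called NRF2 targets, 3 were higher with AA than with OA. Nqo1 lay at 1.63, 1.55, 1.53 and 1.103 CPM with OA, all below the AA range, and was 2.07-fold higher with AA (adjusted p = 5.19e-06). Txnrd1 lay at 88.3, 90.3, 91.1 and 89.1 with OA (1.35-fold higher with AA, adjusted p = 1.99e-11), and Gclc at 45.4, 43.8, 42.7 and 44.9 (adjusted p = 0.00597). Their log2 differences from untreated were 1.63, 0.56 and 0.38 with AA and 0.58, 0.13 and 0.19 with OA.

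Lipid genes divided the fatty acids the other way. Cpt1a lay at 125, 123, 122 and 127 CPM with OA, 1.800-fold above AA (adjusted p = 5.33e-21), and Acadvl was higher with OA as well (log2 AA minus OA -0.35, adjusted p = 6.52e-06). Plin2, not called for AA, was 2.197-fold higher with OA than with AA (adjusted p = 4.91e-12). Scd2 lay at 246, 241, 243 and 245 with OA, below all AA libraries (adjusted p = 9.21e-09), and Scd1 was lower with OA too (log2 AA minus OA 0.83, adjusted p = 7.39e-05). OA thus lay further from untreated than AA did for the raised Cpt1a and Acadvl and for the lowered Scd genes. Fads2 did not differ detectably (log2 0.32, SE 0.13, adjusted p = 0.203), nor did Arrdc3 (log2 0.08, SE 0.05, adjusted p = 0.588).

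Of the called sterol genes, 2 differed between the fatty acids, both lower with AA. Hmgcs1 had a log2 difference from untreated of -0.31 with AA and -0.06 with OA (AA against OA adjusted p = 1.82e-05), and Idi1 of -0.22 and 0.10 (adjusted p = 2.94e-06). Itga4 was higher with AA than with OA (log2 0.20, adjusted p = 3.72e-05), while Lmna was higher and Mgarp lower with AA (log2 0.47 and -0.57). Bzrap1, a synaptic scaffold gene called lower with AA, was the reverse with OA (-0.23 and 0.60; adjusted p = 4.69e-13). Its call against untreated was lost in 8 of 17 other settings. The largest differences either way also included Eid3 (0.85), Olfr524 (0.87) and Dtx1 (-1.03).

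**Figure D5:**
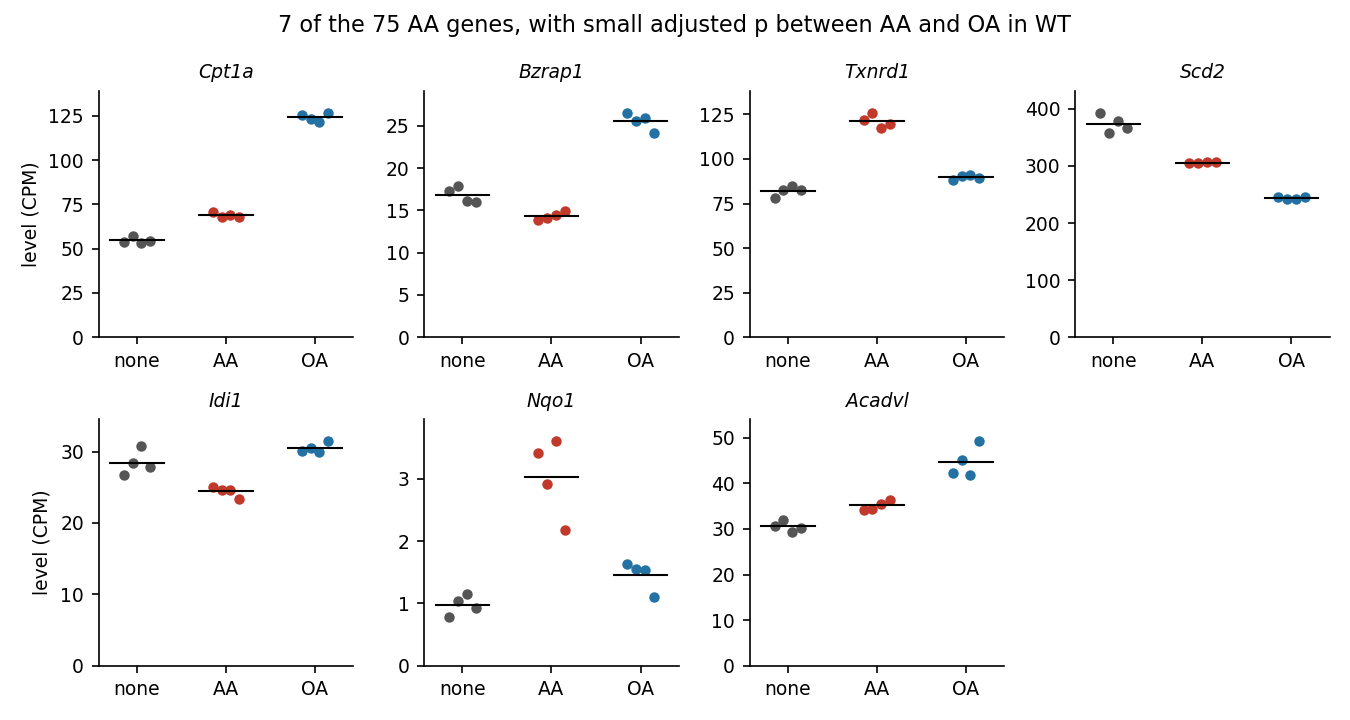
CPM in the 4 untreated, 4 AA and 4 OA libraries of WT cells for Cpt1a, Bzrap1, Txnrd1, Scd2, Idi1, Nqo1 and Acadvl, with points for libraries and bars for means. OA lies beyond AA for Cpt1a (122 to 127 against 68.0 to 70.9 CPM) and Scd2, and its means lie between untreated and AA for Nqo1 and Txnrd1.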

How the data were processed

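Raw counts per gene were taken as deposited by the authors, in 1 table of 49492 genes and 23 libraries whose columns were matched to samples by name. The submitters' processing notes name Trimmomatic 0.36, featureCounts (Subread 1.5.1) and the GRCm38 build. Which aligner and annotation were used, and how featureCounts treated strand and read pairs, is not given in the sources used here. Of counts from 1 to 19, 66.5 to 70.5% were even in the 8 libraries, so a fragment may often have been counted once for each of its reads.

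Genes were kept by edgeR 4.0.16 (filterByExpr, minimum count 10 and total 15 over 6 groups), which left 18015 genes and 99.964% of counts, and were scaled by TMM. The quasi-likelihood test was fitted to all 23 libraries with 1 mean per group (17 residual degrees of freedom, common biological variation 4.97%), and p-values were adjusted by Benjamini-Hochberg over all genes, with a threshold of 0.05. CPM uses TMM-scaled library sizes; intervals are 95%. Replicates differed by more than counting noise, and none were merged. Simulated counts, drawn with the same spread for every gene, were used to check the code alone. They do not show the error rate of the test in these libraries. Alternatives used DESeq2 1.42.0, limma 3.58.1 (voom with quality weights), other scalings and filters, fewer libraries and halved counts, in R 4.3.3. Named genes were 24 tied to the subject, the 12 largest called changes each way, called members and up to 3 further members of each of 35 gene lists, other called genes in groups, and the 4 largest differences each way against KO and OA; genes named for size had a mean log2 CPM of at least 1. The comparison and these lists were chosen with earlier results of these data known. Promoters came from RefSeq (GRCm38.p6), which held windows for 10804 tested genes. Some genes that meet the naming rule are not reported here.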

Additional observations from a re-analysis of the deposited data

Results flagged for a closer look

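Single libraries stood apart from the other 3 of their group for 4 gene and group pairs of 90 looked at, by Dixon's 95% limit, which chance passes in about 1 of 20 groups. All were untreated. Fads2 was high in replicate 1 (6.35 CPM) and Batf3 in replicate 2 (7.97 CPM), Insig1 was low in replicate 1 (13.9 CPM), and Slc7a11 was high in replicate 4 (0.954 CPM).

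The AA effect differed between KO and WT, by the interaction test at an adjusted p under 0.05, for 22 of the 45 genes looked at here (those tied to the subject and the largest changes in WT); other genes that passed are given above. Given as log2 effect in KO minus that in WT, it was larger in KO for the oxidant-response genes Nqo1 (1.04), Txnrd1 (0.532), Gclc (0.511), Gsr (0.445), Mafg (0.681), Slc7a11 (1.6), Hmox1 (1.53) and Fth1 (0.331). It was larger as well for Eid3 (0.757), Arrdc3 (0.956), Ttc39c (0.572), Tmem140 (0.73), Sipa1l1 (0.359), Cpt1a (0.542) and Plin2 (0.432). It was more negative in KO for Scd1 (-1.19), Scd2 (-0.676), Itih5 (-0.576), Pdcd1 (-0.296), Acsl4 (-0.193), Tfrc (-0.375) and Gzmb (-0.435). WT and KO libraries also differ in T-cell receptor makeup and in Xist, and the part of these in the interactions was not tested.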

How the results depend on the processing

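All 75 called genes kept their direction in each of 17 other settings where they were tested, and 36 kept their call in all of them. DESeq2 called 137 genes (55 higher, 82 lower) and limma-voom 109 (45 higher, 64 lower). Upper-quartile scaling called 78 (22 higher, 56 lower, so 28.2% higher against 38.7% here), RLE scaling 74, no filter 110, the stricter filter 85 and the 8 libraries of the groups compared alone 83. Halved counts, chosen after seeing the data, gave 88. Leaving out 1 library in turn gave 48 (without untreated replicate 1) to 73 calls, 15 (without AA replicate 4) to 30 higher and 32 to 43 lower, 6 to 7 cholesterol genes, 5 to 7 NRF2 targets, 0 to 2 genes of NRF2 control, 2 to 4 of fatty acid synthesis, 0 to 2 LXR targets and 1 to 2 of fatty acid oxidation. It also gave 4341 to 4702 calls in KO, 2118 to 2548 interactions and 349 to 412 calls of AA against OA. Same-numbered untreated and AA libraries had correlations of -0.158, 0.184, 0.127 and 0.108, and AA libraries 3 and 4 alone correlated best with their own number, and, with 1 pair below 0, the numbers were not taken to pair samples, though this is not decisive. A replicate block called 59 (20 higher, 39 lower), all among the 75; those not called with it included Srebf1, Msmo1, Acadvl, Ftl1, Cat, Odc1 and Bzrap1.

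Signs turned in uncalled genes near 0. Upper-quartile scaling gave Acsl4 -4.59e-06 and Gzmb -3.15e-05 log2, and limma-voom gave Ifng 0.77, Fads1 0.0077 and Alox5 -0.0031. Leaving out 1 library gave ranges of -0.14 to 0.21 for Plpp1, -0.031 to 0.011 for Gpx4, -0.010 to 0.024 for Acsl4, -0.069 to 0.30 for Slc7a11, -0.057 to 0.13 for Hmox1, -0.0015 to 0.025 for Gzmb, -0.70 to 1.04 for Ifng, -0.017 to 0.090 for Tox, -0.038 to 0.037 for Fads1, -0.026 to 0.12 for Plin2, -0.13 to 0.25 for Alox5 and -0.023 to 0.076 for Lpcat3. The causes of these shifts were not tested. Genes below about 1 CPM, such as Plpp1, Slc7a11 and Ifng, are limited by depth.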
